A study of Mus musculus with 7 samples.

Results

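The genes described here are 43 components and targets of Toll-like receptor and NF-kappa-B signalling, taken from a list of gene symbols and followed in microglia, the resident macrophages of the brain. The array annotation named 39 of the 43, out of 19505 genes in all, and did not list Irak1, Irak4, Chuk or Nfkb1. Microglia that excluded a viability dye and carried CD45 and CD11b were sorted from brains of 5xFAD mice on the C57BL/6 strain, and each sample was read on 1 expression array. The 3 wildtype samples were 5xFAD;B2m+/+ and the 4 knockout samples were 5xFAD;B2m-/-, so every sample carried the amyloid transgenes and there was no group without them. 5xFAD mice express mutant human amyloid precursor protein and presenilin from a neuronal promoter. B2m encodes the light chain of MHC class I. The design text asked how the microglial transcription profile of 5xFAD mice compares with that of 5xFAD mice lacking B2m. The labels gave no age, sex or litter.

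Toll-like receptors sense microbial lipids and nucleic acids and also products of damaged tissue, and several of them have been tied to the microglial response to amyloid. Most signal through the adaptor Myd88, which works through kinases of the Irak family and the ubiquitin ligase Traf6 to reach the I-kappa-B kinase complex. Tlr3 and internalised Tlr4 use the adaptor Ticam1, which reaches the same complex by a branch of its own that does not need the Irak kinases. The I-kappa-B kinase complex marks inhibitors such as Nfkbia for destruction, which frees NF-kappa-B dimers to enter the nucleus. Among the genes these dimers switch on are their own inhibitors, so the transcripts of Nfkbia and Tnfaip3 are commonly read as a record of recent pathway activity.

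The DNA letters that NF-kappa-B binds were looked for near the start sites of these genes, because many members are both parts and targets of the pathway. A RefSeq table of build GRCm38.p6 gave windows of 250 bases before to 50 bases after the start site for 34 of the 43 members. The NF-kappa-B consensus, a 10-base motif searched on both strands with overlapping matches joined, occurred in 11 of these 34 genes (32.4%), against 1388 of 27025 genes in the table (5.14%). Because the list was built in part from targets of the pathway, its higher share is no separate finding. The stretches below show the match in capitals, 5′ to 3′ on the gene's strand, for 6 members that the results turn on. Of the members whose genotypes did not overlap on the arrays, Nfkbia and Ier3 (higher in knockout) and Tnip3 (lower) held a match and Tlr6 held none. Such members were 10.8% of those tested, against 10.9% of all tested genes, and no link between a match and the genotype was tested. The first capital lay 29 bases before the start site in Nfkbia, 12 in Tnfaip3, 54 in Tnip3, 106 in Nfkbie, 92 in Ier3 and 173 in Tlr2. Another match, not shown, began 125 bases before the start site in Tnfaip3 and 8 bases before it in Tlr2.
Nfkbia: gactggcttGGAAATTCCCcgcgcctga
Tnfaip3: atttccatcGGAAATCCCCctgttggca
Tnip3: agacatcctGGGAAATCCCagttacatg
Nfkbie: cagcaaacaGGGGGATTCCggaggggcg
Ier3: gcgaagggcGGAGTTCCCCccggcccgg
Tlr2: aggacacctGGGGAATTCCCacacggagc

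Whole windows follow for Nfkbia (chr12:55492598-55492897, minus strand) and Tnip3 (chr6:65590148-65590447, plus strand). They are shown together because both encode inhibitors of the pathway and hold a match, while their values lay on opposite sides of the wildtype range.
Nfkbia: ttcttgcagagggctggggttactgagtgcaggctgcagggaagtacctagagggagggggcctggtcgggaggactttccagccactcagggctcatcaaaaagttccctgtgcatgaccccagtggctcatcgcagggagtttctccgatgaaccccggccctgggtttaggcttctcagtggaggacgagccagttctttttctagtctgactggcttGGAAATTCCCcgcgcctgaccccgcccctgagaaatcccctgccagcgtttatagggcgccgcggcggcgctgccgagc
Tnip3: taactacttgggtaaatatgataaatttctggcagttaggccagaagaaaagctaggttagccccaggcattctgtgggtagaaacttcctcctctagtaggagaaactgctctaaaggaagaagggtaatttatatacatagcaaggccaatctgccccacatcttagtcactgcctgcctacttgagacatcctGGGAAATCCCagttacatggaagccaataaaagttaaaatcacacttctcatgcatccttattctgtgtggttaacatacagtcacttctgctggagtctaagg
Over the 11 members with a match, all of them tested, the knockout minus wildtype differences described below were above 0 for 5 and below 0 for 6, with a median of -0.030. Over 18 tested members with a window and no match, 6 were above 0 and 12 below, with a median of -0.024. A match is a run of letters in this window and no measurement of binding.

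All levels are log2 values that the authors had processed by RMA, a background correction, normalization and probe summary. B2m (Entrez Gene 12010) was 13.42, 13.41 and 13.39 in wildtype against 10.40, 10.56, 10.47 and 10.24 in knockout arrays. It fell by 2.99 (SE 0.10, limma adjusted p = 1.54e-07), as the labels say it should. The background level used below is the value under which 95% of an array's negative control rows lie, 9.35 to 9.55. All 9 microglial markers on the array lay above it in every array, and no marker of astrocytes, oligodendrocytes, neurons, T and natural killer cells, B cells or dendritic cells did so in any. Of the neutrophil markers, 5 of 9 lay above it in every array and all 9 in at least 1 array. Their summed level, on a log2 scale, was 14.11 to 14.57 in wildtype against 14.06 to 15.29 in knockout arrays, highest in knockout replicate 4. The 9 microglial markers summed to 15.54 to 15.62 in wildtype against 15.55 to 15.66 in knockout arrays, also highest in that array. The summed monocyte markers were 11.31 to 11.87 in wildtype against 11.72 to 12.89 in knockout arrays, also highest in knockout replicate 4. Of 11 endothelial markers 4 lay above it in every array and 6 in at least 1, and their summed level was 13.98, 14.04 and 13.25 in wildtype against 13.38 to 13.55 in knockout arrays. Of 7 markers of border-associated macrophages, 2 lay above it in every array, and their sum was 11.85 to 12.33 in wildtype against 11.92 to 12.18 in knockout arrays. In bulk RNA, fewer cells of a type and less RNA per cell cannot be told apart. Whether each array stands for its own animal is not stated, so the p-values reflect array-to-array spread that may be partly technical. The number of arrays limits the precision.

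None of the members passed the test for a difference between genotypes. Of the 43 genes, 37 were bright enough to be tested, 2 (Ikbkg and Traf1) were too dim and 4 were not listed. In limma, 0 of 37 had a Benjamini-Hochberg adjusted p under 0.05, where 0.05% of all tested genes did (5 of 10004), and the members' adjusted p ran from 0.327 to 0.996. At an unadjusted p under 0.05 there were 4 members, all higher in knockout arrays. They were the receptor gene Tlr6, the Tlr4 partner Ly96, the inhibitor Nfkbie and the immediate early target Ier3. Those 4 are 10.8% of the tested members, against 11.9% of all tested genes (8.39% higher and 3.54% lower), so their share lay near the background. The genotypes did not overlap in 4 members (Tlr6, Ier3 and Nfkbia higher, Tnip3 lower), again 10.8%, against 10.9% of all tested genes (7.1% higher and 3.8% lower).

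The differences were small as well as below the threshold. Of the 37 differences, 16 were above 0 and 21 below (43.2% above 0, against 48.6% of all tested genes). That split was 22 above and 15 below with arrays centred on their medians, and 13 above and 24 below after repeated quantile normalization. The differences lay between -0.23 for Tlr3 and 0.39 for Tlr6, with a median of -0.018 where the median of all tested genes was -0.0055. The median size regardless of sign was 0.11 in the members and 0.12 in all tested genes. The 95% intervals of single genes, which are not adjusted for the number of genes, lay wholly within 1.5-fold in either direction for 34 of 37 members (91.9%), against 84.1% of all tested genes. The 3 exceptions were Tlr6, Ly96 and Nfkbie, whose upper bounds were 0.66, 0.69 and 0.71. Intervals of all 37 lay within 2-fold. Of the 37 members, 26 lay above the background level in every array and 5 in none, against 3537 and 4694 of the 10004 tested genes. The shares within 1.5-fold therefore compare sets of unlike brightness. Relb and Bcl3, below that level in every array, count among the 34. Median centring adds the same 0.034 to every difference. The 9 members nearest to 0 (Tlr2, Myd88, Irak2, Traf6, Ikbkb, Nfkb2, Nfkbib, Nfkbiz and Ptgs2) changed sign under that scaling or under quantile normalization, which says only that their differences are no larger than the shift between scalings.

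**Figure D1:**
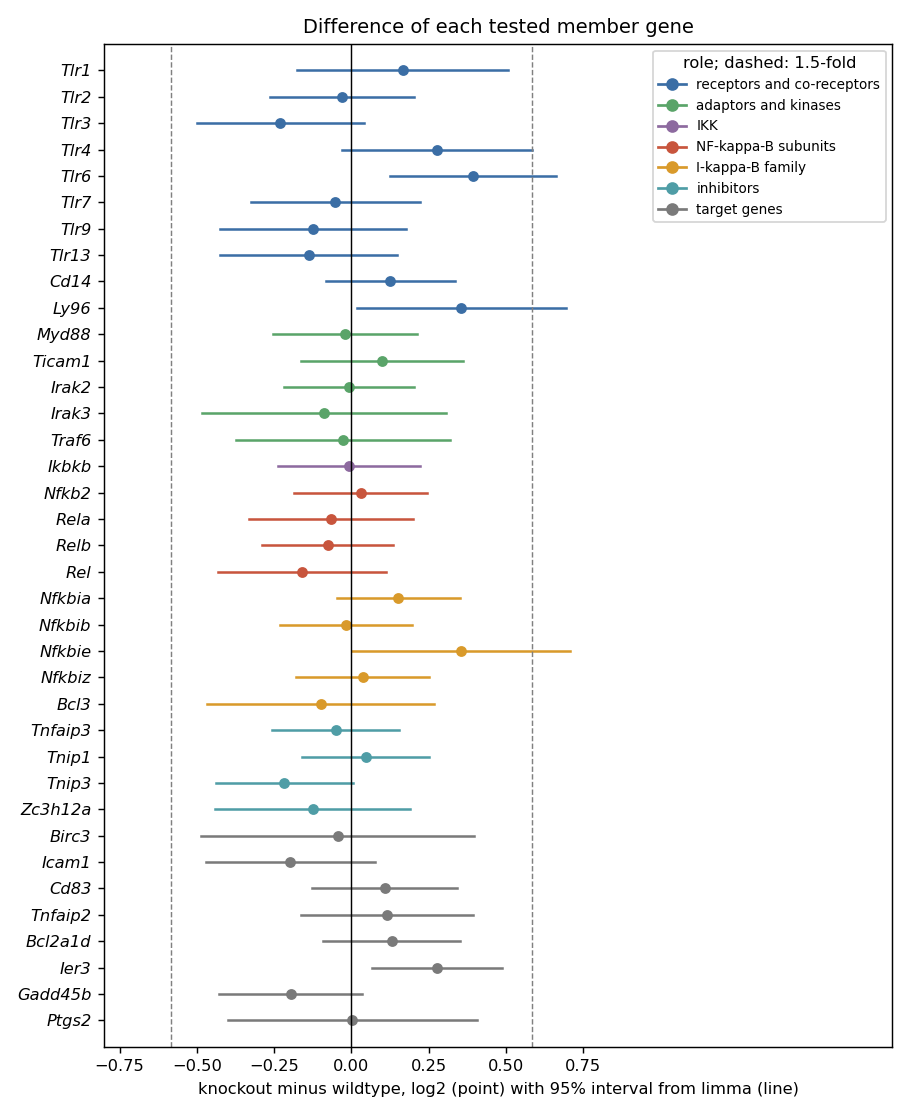
Knockout minus wildtype difference (x axis, log2) for each of the 37 tested member genes (y axis), coloured by role, with the point as limma's estimate, the line as its 95% interval and dashed lines at 1.5-fold. Only the intervals of Tlr6, Ly96, Nfkbie and Ier3 exclude 0, and those of Tlr6, Ly96 and Nfkbie reach past 1.5-fold.

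The receptors and co-receptors of the cell surface, the first step of the pathway, held the 2 largest positive differences. Tlr6 (Entrez Gene 21899), which pairs with Tlr2 to bind diacylated lipopeptides, was 8.87, 8.93 and 8.81 in wildtype against 9.31, 9.14, 9.08 and 9.52 in knockout arrays. All 4 knockout arrays lay above all 3 wildtype arrays, and knockout replicate 4 was the highest. The difference was 0.39 (SE 0.12, limma adjusted p = 0.327), and 0.31 without knockout replicate 4. Every Tlr6 value lay below the background level, so no fold is given.

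Ly96 (Entrez Gene 17087), the secreted protein that sits on Tlr4 and holds lipopolysaccharide, was 8.21, 8.08 and 8.13 in wildtype against 8.63, 8.21, 8.29 and 8.85 in knockout arrays. Knockout replicates 1 and 4 stood above the rest, while knockout replicate 2 lay within the wildtype range. The difference was 0.36 (SE 0.15, adjusted p = 0.404), it was 0.24 without knockout replicate 4, and all values lay below the background level. Tlr4 itself (Entrez Gene 21898), the receptor for lipopolysaccharide, was 9.68, 9.36 and 9.06 in wildtype against 9.55 to 9.70 in knockout arrays. Wildtype replicate 1 overlapped the knockout arrays, and the difference of 0.28 (SE 0.14, adjusted p = 0.470) became 0.12 when wildtype replicate 3 was left out and 0.43 when wildtype replicate 1 was. Cd14 (Entrez Gene 12475), the co-receptor that hands lipopolysaccharide to Tlr4 and Ly96, was 12.38, 12.30 and 12.48 in wildtype against 12.51, 12.55, 12.45 and 12.54 in knockout arrays. Those ranges overlapped through wildtype replicate 3, with a difference of 0.13 (SE 0.094, adjusted p = 0.627).

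Tlr2 (Entrez Gene 24088), a receptor for bacterial lipopeptides with whichever partner it joins, was 11.65, 11.85 and 11.89 in wildtype against 11.75, 11.81, 11.87 and 11.64 in knockout arrays. Both groups covered nearly the same range, and the difference was -0.030 (SE 0.11, adjusted p = 0.936). Tlr1, the other partner of Tlr2, was held between 10.30 and 10.38 in wildtype arrays but spread from 10.07 to 10.79 in knockout arrays, on both sides of the wildtype range. Its difference was 0.17 (SE 0.15, adjusted p = 0.701).

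The receptors of endosomes, which read nucleic acids, had differences from -0.23 to -0.052, and none passed. Splitting the receptors by their place in the cell was chosen after their values were seen, and no test of the split was made. Tlr3 (Entrez Gene 142980), which binds double-stranded RNA, was 11.42, 11.43 and 11.24 in wildtype against 11.09, 10.98, 11.07 and 11.40 in knockout arrays. Knockout replicate 4 lay among the wildtype arrays and the other knockout arrays lay below all of them. The difference was -0.23 (SE 0.12, adjusted p = 0.492), and -0.32 without knockout replicate 4. Tlr13, which recognises bacterial ribosomal RNA, differed by -0.14 (SE 0.13), Tlr9, the receptor for unmethylated CpG DNA, by -0.12 (SE 0.14) and Tlr7, the receptor for single-stranded RNA, by -0.052 (SE 0.12). Tlr13 was 11.42 in knockout replicate 2 and between 11.82 and 11.99 in the other 6 arrays, and its difference was -0.028 without that array. Without wildtype replicate 1, the Tlr9 difference was -0.040 and that of Tlr7 turned to 0.084.

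**Figure D2:**
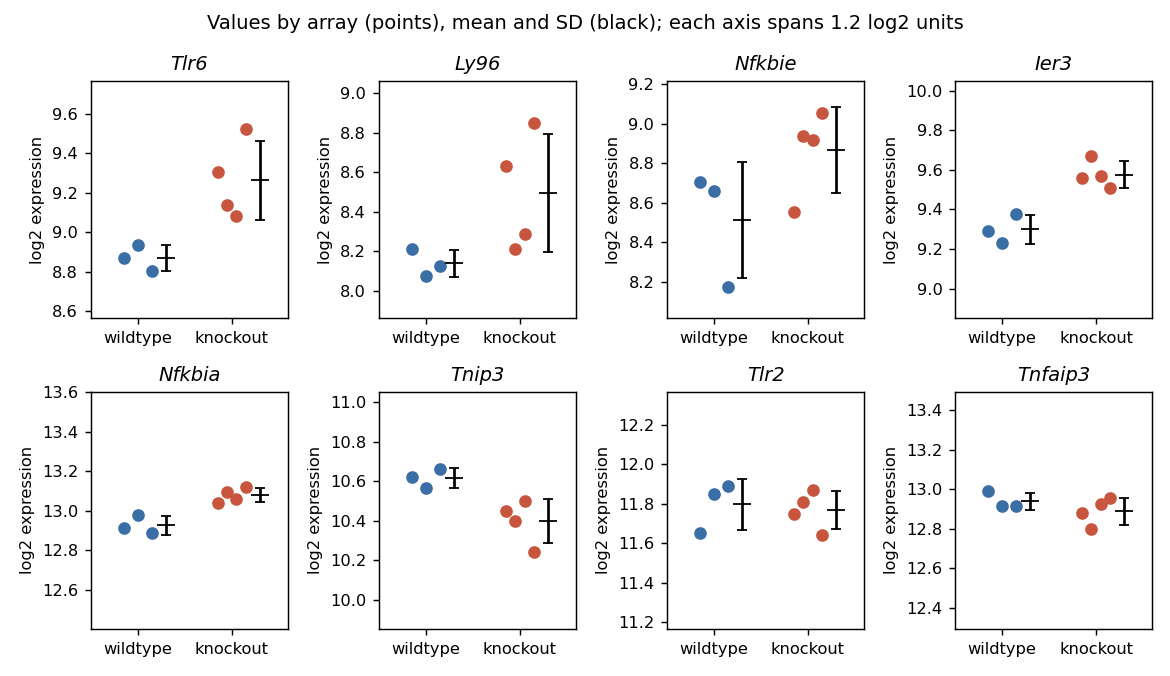
Log2 expression (y axis) of 8 members in the 3 wildtype (blue) and 4 knockout (red) arrays, with black marks for mean and SD; each axis spans 1.2 log2 units. Knockout points of Tlr6, Ier3 and Nfkbia lie above all wildtype points and those of Tnip3 below, while Ly96, Nfkbie, Tlr2 and Tnfaip3 overlap.

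The adaptors and kinases that carry the signal from the receptors lay close to 0. Myd88 (Entrez Gene 17874), the adaptor of nearly all Toll-like receptors, was 11.01, 10.78 and 10.96 in wildtype against 11.04, 10.82, 10.83 and 10.89 in knockout arrays. The ranges overlapped almost wholly, with a difference of -0.021 (SE 0.10, adjusted p = 0.956). Ticam1, the adaptor of Tlr3 and of internalised Tlr4, differed by 0.10 (SE 0.12), and Irak2, a kinase that sustains signalling, by -0.0078 (SE 0.095). Irak3, which restrains the kinases above it, was 9.68 to 9.84 in wildtype but 9.32 to 10.16 in knockout arrays, with the highest value in knockout replicate 4. Its difference was -0.088 (SE 0.18, adjusted p = 0.878). Traf6 (Entrez Gene 22034), the ubiquitin ligase on which Myd88 signalling converges, was 9.74, 10.10 and 9.78 in wildtype against 9.47, 9.94, 9.87 and 10.10 in knockout arrays. Knockout replicate 1 was the lowest of the 7, and the difference was -0.027 (SE 0.16, adjusted p = 0.964). Ikbkb, the kinase that marks I-kappa-B proteins, differed by -0.0087 (SE 0.10). Its scaffold Ikbkg was between 5.62 and 6.22 in all arrays, below the filter and within the 37.9th to 51.0th percentiles of the negative control rows.

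NF-kappa-B subunit transcripts did not separate the genotypes. Rela (Entrez Gene 19697), the transactivating subunit of the classical dimer, was 11.17, 11.05 and 11.12 in wildtype against 10.76, 11.12, 11.17 and 11.14 in knockout arrays. Knockout replicate 1 stood below the other 6 arrays, and the difference of -0.065 (SE 0.12, adjusted p = 0.868) was 0.030 without it. Rel, a subunit prominent in immune cells, was 12.02, 12.01 and 11.73 in wildtype against 11.79, 11.66, 11.61 and 11.98 in knockout arrays, a difference of -0.16 (SE 0.12, adjusted p = 0.635). Relb and Nfkb2, the pair of the alternative pathway, differed by -0.077 (SE 0.096) and 0.030 (SE 0.097), and all Relb values lay below the background level.

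Among the I-kappa-B family, Nfkbia and Nfkbie had positive differences that did not pass. Nfkbia (Entrez Gene 18035), the main inhibitor rebuilt after each activation, was 12.91, 12.98 and 12.89 in wildtype against 13.04, 13.10, 13.06 and 13.12 in knockout arrays. All 4 knockout values lay above all 3 wildtype values, but only by 0.15 on average (SE 0.090, adjusted p = 0.531), which is 1.11-fold with a 95% interval from 0.967 to 1.28. Nfkbie (Entrez Gene 18037), another cytoplasmic inhibitor, was 8.70, 8.66 and 8.17 in wildtype against 8.55, 8.94, 8.92 and 9.06 in knockout arrays. Wildtype replicate 3 was the lowest, and the difference of 0.35 (SE 0.16, adjusted p = 0.417) was 0.19 without it. All Nfkbie values lay below the background level. Nfkbib differed by -0.018 (SE 0.097), the nuclear co-activator Nfkbiz by 0.036 (SE 0.096) and the nuclear cofactor Bcl3, also below that level in all arrays, by -0.10 (SE 0.17).

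Of the 4 genes grouped here as inhibitors that switch the pathway off, 3 had differences below 0 and 1 above, and 0 passed. Tnfaip3 (Entrez Gene 21929), the ubiquitin-editing enzyme that removes activating chains from Traf6, was 12.99, 12.91 and 12.91 in wildtype against 12.88, 12.80, 12.92 and 12.96 in knockout arrays. The ranges overlapped, and the difference was -0.051 (SE 0.093, adjusted p = 0.866), 0.965-fold with a 95% interval from 0.836 to 1.11. Tnip3 (Entrez Gene 414084), an inducible partner of Tnfaip3, was 10.62, 10.56 and 10.66 in wildtype against 10.45, 10.40, 10.50 and 10.24 in knockout arrays. All knockout values lay below all wildtype values, lowest in knockout replicate 4. The difference was -0.22 (SE 0.10, adjusted p = 0.428), with a 95% interval from -0.44 to 0.0036. Tnip1, a relative of Tnip3, differed by 0.046 (SE 0.092), and Zc3h12a, a ribonuclease that degrades inflammatory transcripts, by -0.13 (SE 0.14).

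Of the target genes, Ier3 alone had an unadjusted p under 0.05. Ier3 (Entrez Gene 15937), an immediate early gene that affects cell survival, was 9.29, 9.23 and 9.38 in wildtype against 9.56, 9.67, 9.57 and 9.51 in knockout arrays. The groups did not overlap, and the difference was 0.28 (SE 0.095, adjusted p = 0.348). Its values crossed the background level, with 4 of 7 arrays above it. Icam1 (Entrez Gene 15894), the adhesion molecule that lymphocytes bind, was 12.63, 12.29 and 12.70 in wildtype against 12.50, 12.33, 12.21 and 12.34 in knockout arrays. Wildtype replicate 2 lay among the knockout arrays, and the difference of -0.20 (SE 0.12, adjusted p = 0.551) was -0.32 without it and -0.12 when wildtype replicate 3 was left out. Gadd45b (Entrez Gene 17873), a stress-response gene, was 11.97, 11.91 and 12.12 in wildtype against 11.78, 11.95, 11.71 and 11.77 in knockout arrays. Only knockout replicate 2 reached the wildtype range, and the difference was -0.20 (SE 0.10, adjusted p = 0.492).

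Cd83, a surface protein of activated myeloid cells, differed by 0.11 (SE 0.11) in the probe set kept, and its other probe set gave -0.0030. Bcl2a1d, an anti-death relative of Bcl2 with near-identical neighbouring copies that a probe set may not tell apart, differed by 0.13 (SE 0.10). Tnfaip2 differed by 0.11 (SE 0.13), and Birc3, a ubiquitin ligase that blocks cell death, by -0.045 (SE 0.20). Ptgs2, the inducible enzyme of prostaglandin synthesis, was 9.62, 9.01 and 9.20 in wildtype against 9.47, 9.39, 8.84 and 9.41 in knockout arrays, with a difference of 0.0029 (SE 0.18). Traf1, a signalling adaptor that the pathway induces, was between 6.05 and 6.55 in all arrays and below the filter.

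The members varied widely in how tightly they were held within a genotype. The pooled SD within genotypes was 0.041 for Nfkbia, lower than in all but 0.56% of tested genes, 0.056 for Tnip1 and 0.060 for Tnfaip3 (2.65th percentile). At the other end it was 0.34 for Birc3 (94.2nd percentile), 0.30 for Ptgs2 (91.5th) and 0.29 for Irak3 (90.4th). The median over the tested members was 0.15, beside 0.16 over all tested genes. The difference of 0.15 in Nfkbia was several times its own spread, but that spread was the lowest of the tested members. With limma's shared variance estimate the error was 0.090, and Nfkbia did not pass. Whether Nfkbia would pass on its own spread alone was not tested. In the 2 alternative fits whose variance estimate followed intensity, its unadjusted p in limma was 0.012 and 0.016. Its adjusted p there was 0.304 and 0.308. By array, the median deviation of the tested members from their gene means was 0.085, -0.057 and -0.024 in wildtype against 0.017, -0.045, -0.012 and 0.10 in knockout arrays. Wildtype replicate 1 and knockout replicate 4 were the highest and the genotypes overlapped. Knockout replicate 4 held the highest value of 11 of 37 members (29.7%), against 21.3% of all tested genes. Wildtype replicate 2 held the lowest value of 10 members (27.0%), against 14.7% of all tested genes.

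**Figure D3:**
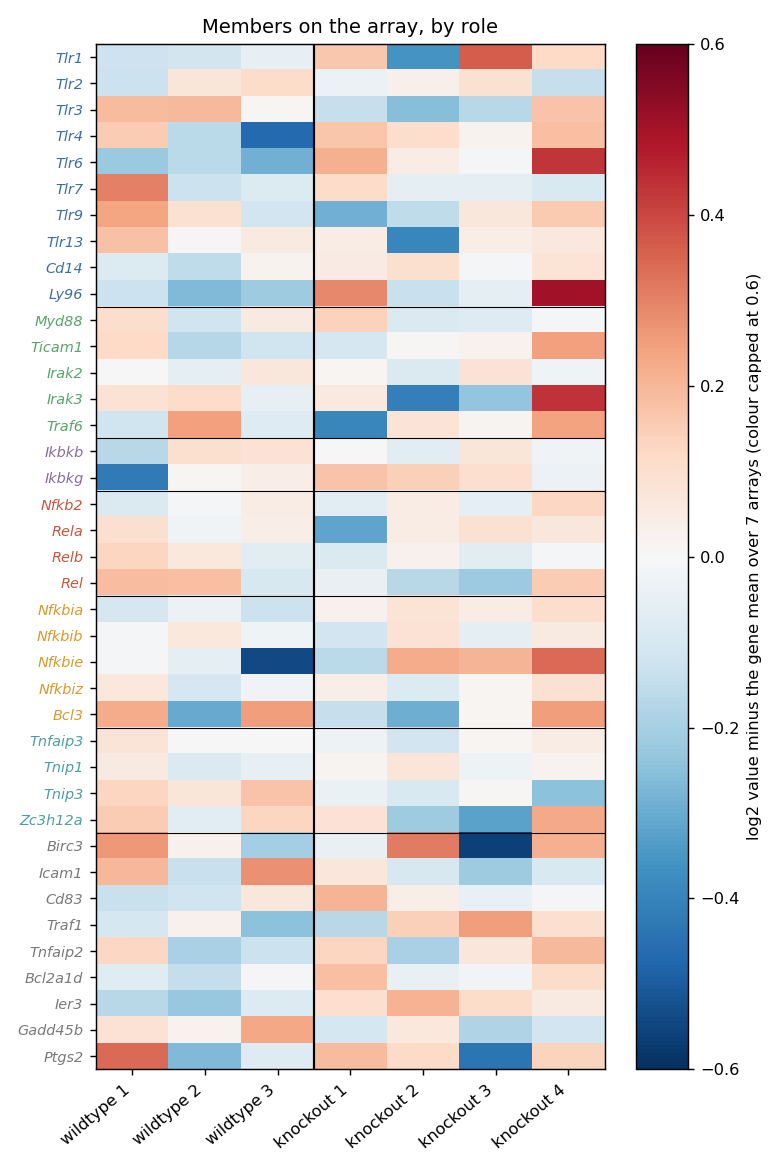
Log2 value minus the gene mean over the 7 arrays (colour, capped at 0.6) for the 39 members on the array (rows, grouped by role) in each array (columns, wildtype left of the line). Knockout replicate 4 holds the highest value of 11 of the 37 tested members, and no role group is of 1 colour on either side of the line.

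Markers of other cells moved with part of these values. The median deviation of 9 neutrophil markers was -0.29, 0.096 and -0.58 in wildtype against -0.61, -0.092, 0.53 and 1.27 in knockout arrays, and that of 7 monocyte markers ran from -0.58 to -0.0021 in wildtype and from -0.29 to 0.88 in knockout arrays. S100a8, a defining neutrophil gene, was 10.16 to 11.37 in wildtype against 10.56 to 12.44 in knockout arrays. Knockout replicate 4, the highest in both lists, was also the highest array for Tlr6, Ly96, Nfkbie, Nfkbia and Irak3, and the lowest for Tnip3. Knockout replicate 1, the lowest for neutrophil markers, had the second highest Tlr6 and Ly96. At an unadjusted p under 0.05, 5 of 11 endothelial markers were lower in knockout arrays, and 3 of 6 tested monocyte markers and 1 of 9 neutrophil markers were higher, though none passed. The endothelial genes Cdh5 and Vwf differed by -0.72 (SE 0.21) and -0.50 (SE 0.14), and S100a4 and Chil3 of the monocyte list by 0.92 (SE 0.18) and 1.17 (SE 0.47). S100a8 and these genes were picked with their values known. Cdh5 was 9.16 in wildtype replicate 3, within the knockout range of 8.83 to 9.30. Vwf lay below the background level in every array, and Chil3 lay above it in 1 array and S100a4 in 2. In the same lists, endothelial Kdr differed by -0.085, monocyte Vcan by -0.013 and neutrophil Csf3r by -0.19. The part of other cells in these differences was not tested, and the values of Tlr6 and Ly96 without knockout replicate 4 stand above. Genes of the response to tissue dissociation, which shares targets with NF-kappa-B, had a median deviation of -0.017 to 0.063 in wildtype against -0.014 to 0.056 in knockout arrays over 15 genes. An unadjusted p under 0.05 was found in 2 of them, of opposite direction, where 11.9% of all tested genes had one. Ier2 differed by 0.37 (SE 0.097, limma adjusted p = 0.315) and Hspa1a by -0.41 (SE 0.14, adjusted p = 0.343). Ier2 was 11.06 to 11.11 in wildtype against 11.33 to 11.56 in knockout arrays. The genotypes did not overlap in these genes or in Junb (0.14, SE 0.090). That held for 10.9% of all tested genes. The part of this response in the Ier3 and Nfkbia values was not tested.

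**Figure D4:**
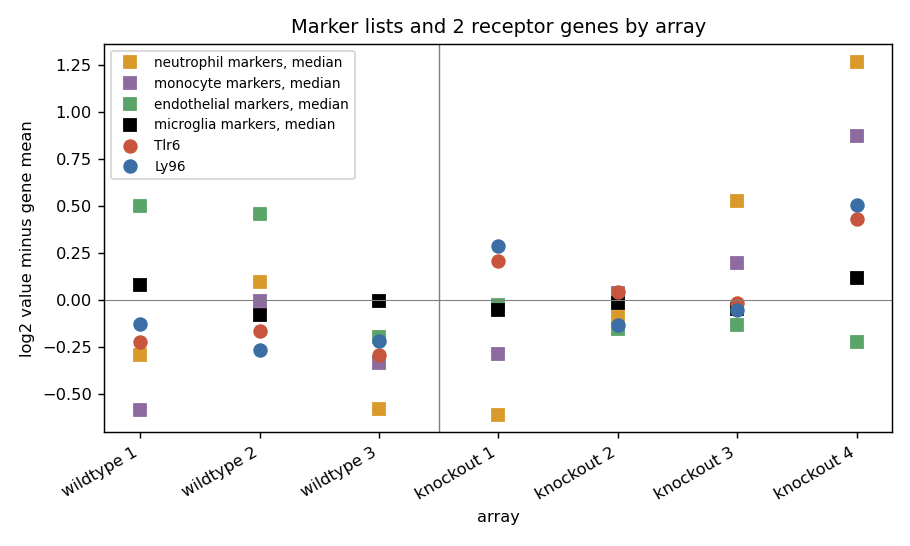
Log2 value minus gene mean (y axis) by array (x axis) for Tlr6 and Ly96 (circles) and for the medians of neutrophil, monocyte, endothelial and microglial marker lists (squares). Neutrophil and monocyte markers reach 1.27 and 0.88 in knockout replicate 4, where Tlr6 and Ly96 are also highest, while microglial markers stay between -0.079 and 0.12.

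A wider list of 64 pathway genes outside the 43 likewise held no gene that passed. The array named 61 and 56 were tested. In limma 0 passed over all genes, and 9 (16.1%) had an unadjusted p under 0.05, against 11.9% of all tested genes, 7 higher and 2 lower. The median difference of the 56 was 0.017. Intervals lay within 1.5-fold for 44 of the 56 (78.6%), against 91.9% of the tested members and 84.1% of all tested genes. Of the 56, 30 lay above the background level in every array and 16 in none, so this list was dimmer than the members. Tlr12 (Entrez Gene 384059), a mouse receptor for a parasite protein, was 9.42, 9.20 and 9.27 in wildtype against 9.91, 9.77, 9.59 and 9.56 in knockout arrays. The groups did not overlap, and the difference was 0.41 (SE 0.12, adjusted p = 0.315). Plaur (Entrez Gene 18793), the urokinase receptor and a target of the pathway, was 10.75, 10.50 and 10.82 in wildtype against 11.00, 11.04, 10.95 and 11.24 in knockout arrays, also without overlap. It differed by 0.37 (SE 0.12, adjusted p = 0.334), 1.29-fold.

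Among signalling proteins of that list, the adaptor Traf2 differed by 0.29 (SE 0.10), Commd1, which promotes turnover of Rela, by 0.43 (SE 0.15; 0.26 when wildtype replicate 1 was left out) and Bcl10, which links antigen and lectin receptors to the pathway, by 0.33 (SE 0.12). Otulin, which removes linear ubiquitin chains, differed by 0.37 (SE 0.14), while Sigirr, a receptor that restrains Toll-like receptor signalling, differed by -0.31 (SE 0.12) without overlap. Rnf31, chosen after its values were seen as the remaining gene under the unadjusted threshold, builds the linear chains and differed by -0.39 (SE 0.15). Traf2, Commd1, Otulin and Sigirr lay below the background level in all arrays. In the list, 11 of 24 tested genes of Toll-like receptor signalling (45.8%) and 9 of 19 of NF-kappa-B signalling (47.4%) had differences above 0. Of 13 tested secreted or inducible targets, 11 (84.6%) did so, with a median of 0.12, where 48.6% of all tested genes lay above 0. Among those 11, Il1a (0.011) and Ccl2 (0.022) lay nearer to 0 than the 0.034 that median centring adds. The target group was singled out with its values known. Neutrophil and monocyte markers were highest in knockout replicate 4, as given above, and their part in the 13 targets was not tested. The chemokine Cxcl2 differed by 0.35 (SE 0.14, adjusted p = 0.381). Tnf and Il1b, central cytokines of the pathway outside the naming rule and picked with their values known, differed by 0.12 and 0.14, with ranges that overlapped, as 12.28, 11.78 and 12.17 against 12.38, 12.22, 12.14 and 12.02 for Tnf. The count of 9 fell to 3 without wildtype replicate 1 and to 4 without wildtype replicate 2.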

How the data were processed

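Microglial RNA from 7 samples was hybridized to 1 array each, 3 from B2m wildtype and 4 from B2m knockout 5xFAD mice, grouped by the genotype label. Per the submitters' processing notes, the deposited log2 values came from RMA, run by the authors in Affymetrix Expression Console 1.1. The annotation and build they used are not given in the sources used here. RMA brings arrays to a common distribution, so a shift shared by most genes would not show. The table held 28846 rows (3.57 to 14.34, array medians 7.68 to 7.75) and was not normalized again. Annotation gave 19572 rows a single symbol, updated by Entrez identifier to 19505 genes; of several probe sets (55 genes) the one with the highest mean was kept. The probe sets' place in a transcript was not analysed here.

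Genes above the array median over named genes (7.92 to 7.99) in at least 3 of 7 arrays were tested, 10004 in all. The fit was lmFit and eBayes in limma 3.58.1 (R 4.3.3), knockout minus wildtype, with Benjamini-Hochberg adjustment over all tested genes and calls at 0.05. The fitting code was tested on simulated data. The 5222 rows tagged neg served as a rough guide to background, and their 95th percentile lay above the filter. Dim genes are given without folds.

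Named in full were B2m, members at an unadjusted p under 0.05, the 4 largest differences each way, core genes of the pathway and the 8 other pathway genes with the smallest p; other members are summarised, and exceptions are stated. Members, lists and roles were chosen with earlier results of these data known, so no list is tested here. Promoter sequences were RefSeq's, build GRCm38.p6. Alternatives were 2 filters on dim genes, 2 variance models, array weights, repeated quantile normalization, median centring, the mean of probe sets, each array left out, and wildtype replicates 1 and 2 left out together. Replicates were numbered in order of deposit, which pairs no samples.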

Additional observations from a re-analysis of the deposited data

Results flagged for a closer look

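In the 4 knockout arrays, 46 genes (the tested members, B2m and the named genes of the wider list) were examined for a single array far from the other knockout arrays, measured as its gap to the nearest array over the whole range. Dixon's critical value for 4 samples was exceeded in 5 of the 46, where chance flags about 1 in 20. The share flagged over all tested genes was not counted, so the 5 are not read as an excess. The named genes of the wider list, Bcl10 and Otulin among them, had been chosen by their small p. Tlr13 (0.949) was 11.42 in knockout replicate 2 and 11.85 to 11.88 in the others. Bcl10 (0.910) was 9.26 in knockout replicate 4 and 9.51 to 9.53 in the others. Rela (0.887) was 10.76 in knockout replicate 1 and 11.12 to 11.17 in the others. Ptgs2 (0.879) was 8.84 in knockout replicate 3 and 9.39 to 9.47 in the others. Otulin (0.833) was 8.58 in knockout replicate 2 and 8.98 to 9.06 in the others. In all 5 the far array was the low one, and the arrays differed between genes. The 3 wildtype arrays were too few to be examined in this way.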

How the results depend on the processing

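Over 16 alternatives, 0 members passed in limma, and the lowest adjusted p of a member was 0.214 (Ier3, with array weights). B2m passed in all 16. The members at an unadjusted p under 0.05 numbered 7 after repeated quantile normalization (4 higher and 3 lower, 18.9% against 11.2% of all tested genes) and 2 to 5 with 1 array left out, lowest without wildtype replicate 3, where Tlr6 and Ier3 were counted. Members under that threshold numbered 6 in the 2 fits whose variance estimate followed intensity (5 higher and 1 lower, 16.2% against 12.3% of all tested genes). There Nfkbia and Gadd45b joined the 4 of the main fit. Tlr6 was under that threshold in all 16 settings. The members' median stayed between -0.058 and 0.029. Genes called over the whole table numbered 4 to 26 with 1 array left out, with 26 without wildtype replicate 3. The wider list's count was 3 to 10 with 1 array left out, 3 without wildtype replicate 1, 4 without wildtype replicate 2, and 1 without both, which left 1 wildtype array assumed to vary like the knockout arrays. With arrays centred on their medians Tlr2 was 0.0045, Myd88 0.013 and Traf6 0.0072, all of opposite sign to the main values. Centring adds the same 0.034 to every difference, so these turns only restate values nearer to 0 than that. With 1 array left out, Tlr2 ran from -0.10 to 0.017, Myd88 from -0.087 to 0.024, Traf6 from -0.11 to 0.099 and Rela from -0.11 to 0.030, and Traf6 was 0.066 without wildtype replicates 1 and 2. The causes were not tested beyond the fewer arrays in those fits. With the stricter filter Ly96 and Nfkbie were not tested. No paired analysis was possible because the labels carry no replicate numbers shared by the genotypes. Tlr6, Ly96, Nfkbie, Bcl3 and Relb lay near the level of negative control rows, which limits what their values can show. The same limit holds in part for members above the background level in only some of the 7 arrays. These were Ptgs2 (2 arrays), Tnip1 and Ier3 (4), Tlr4 and Ikbkb (5) and Irak3 (6). Of the wider list's named genes, Rnf31 lay above it in 1 array, Bcl10 in 3, and Tlr12 and Cxcl2 in 5.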
